A study of Mus musculus with 6 samples.

Results

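The duct epithelium genes described here are 29 genes for which cholangiocytes, the cells that line the bile ducts, are known, taken by symbol from the deposited count table. All 29 were among the 20914 listed genes, and 28 of them were among the 13725 genes with enough counts to be tested. They were divided into 23 genes, called duct-restricted here, and 6 that hepatocytes also express (Krt8, Krt18, Cdh1, Onecut1, Slc4a2 and Atp1b1). Hepatocytes are not a usual source of the 23, but they are not excluded as one. The division rests on general knowledge of the liver and used no value of these libraries. Some of the duct-restricted genes are known from further cells of the liver, such as Spp1 in macrophages and activated stellate cells and Cd24a and Sox4 in immune cells. Sox9 is also known from hepatocytes that take on duct traits.

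RNA of mouse liver was sequenced in 6 libraries, 3 of a group labelled DOX and 3 of a group labelled PBS. Both groups carry the genotype label BucheKI/KI-Hep, the label Alb-Cre (a Cre recombinase under the albumin promoter, which is active in hepatocytes) and a BDL treatment, so that only the DOX or PBS label separates them. The design text states that BUCHE was overexpressed in hepatocytes; the meaning of DOX, S10D and CKI is not given, nor are age, dose, or whether each library is 1 animal. BDL is the usual abbreviation of bile duct ligation, an operation that blocks bile flow, and every comparison below is between livers that carry this label. No library without it was analysed here.

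Cholangiocytes are a small share of the cells of a liver. They form a polarised epithelium with simple keratins, tight junctions and a primary cilium, and in response to secretin they add chloride, bicarbonate and water to bile. When bile flow is blocked, duct-like cells multiply around the portal tracts, a change known as the ductular reaction, and transcripts of the genes below are commonly used to follow it. In bulk liver RNA, fewer duct cells and less RNA of these genes per cell cannot be told apart.

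Total gene counts were 32826493 to 41102844 per library. The 23 duct-restricted genes together took 0.0372%, 0.036% and 0.0187% of the counts of DOX replicates 1, 2 and 3, and 0.0472%, 0.0627% and 0.0439% of those of PBS replicates 1, 2 and 3. Spp1, which other liver cells also make, weighed most in these sums. It gave 6052, 4673 and 2620 of their 14498, 12149 and 7667 counts in DOX replicates 1, 2 and 3. In PBS replicates 1, 2 and 3 it gave 8654, 7010 and 6405 of 19145, 20571 and 15358. Bche, the butyrylcholinesterase gene, had 447.5 to 969.2 CPM (counts scaled to library size and by the TMM method) in the DOX libraries and 192.8 to 244.9 CPM in the PBS libraries, with no overlap of the groups (log2 fold change 1.67, SE 0.27, adjusted p = 0.106). DOX replicate 3 and PBS replicate 2 stood apart from the others for the duct genes, as described below, and the fold changes of the members are given with and without them.

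With all 6 libraries the log2 fold changes of the duct-restricted genes in DOX against PBS were negative, but no single member passed the test. The median difference was smaller without 2 libraries that were chosen after seeing the data. All 22 tested duct-restricted genes had a negative log2 fold change, where 53% of all tested genes had one. Their median was -0.61, a ratio of 0.653, against -0.02 over all tested genes. Without PBS replicate 2 the median was -0.36, without DOX replicate 3 it was -0.40, and without both it was -0.14, with 18 of the 22 values negative and a range from -0.86 to 0.20. For most of these genes they were the highest PBS and the lowest DOX library, so leaving them out had to shrink the difference. Without PBS replicate 1 or 3 the median was -0.76 and -0.75, and without DOX replicate 1 or 2 it was -0.72 and -0.71. A log2 fold change under -0.5 was found for 21 of the 22 with all 6 libraries, where 7.02% of all tested genes had one. Without both PBS replicate 2 and DOX replicate 3 it was found for 3 of the 22, and the share of all genes was not taken there. At an adjusted p of 0.05, edgeR's quasi-likelihood test called 0 of the 28 tested members, where it called 0.0291% of all genes, 0.00729% as lower in DOX. The adjusted p of the members was 0.183 to 0.995. At an unadjusted p under 0.05, 8 duct-restricted genes and 3 of the shared genes had lower levels in DOX (4.87% of all tested genes did), and 0 members had higher ones (5.03%). DESeq2 called 3 members, all lower in DOX, which were Onecut1, Cdh1 and Tspan8 (0.324% of all genes in that direction). In 7 of the 22 duct-restricted genes and 3 of the 6 shared genes, every DOX library lay below every PBS library, which was so for 9.02% of all tested genes. In 0 members did every DOX library lie above every PBS library (7.84%).

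**Figure D1:**
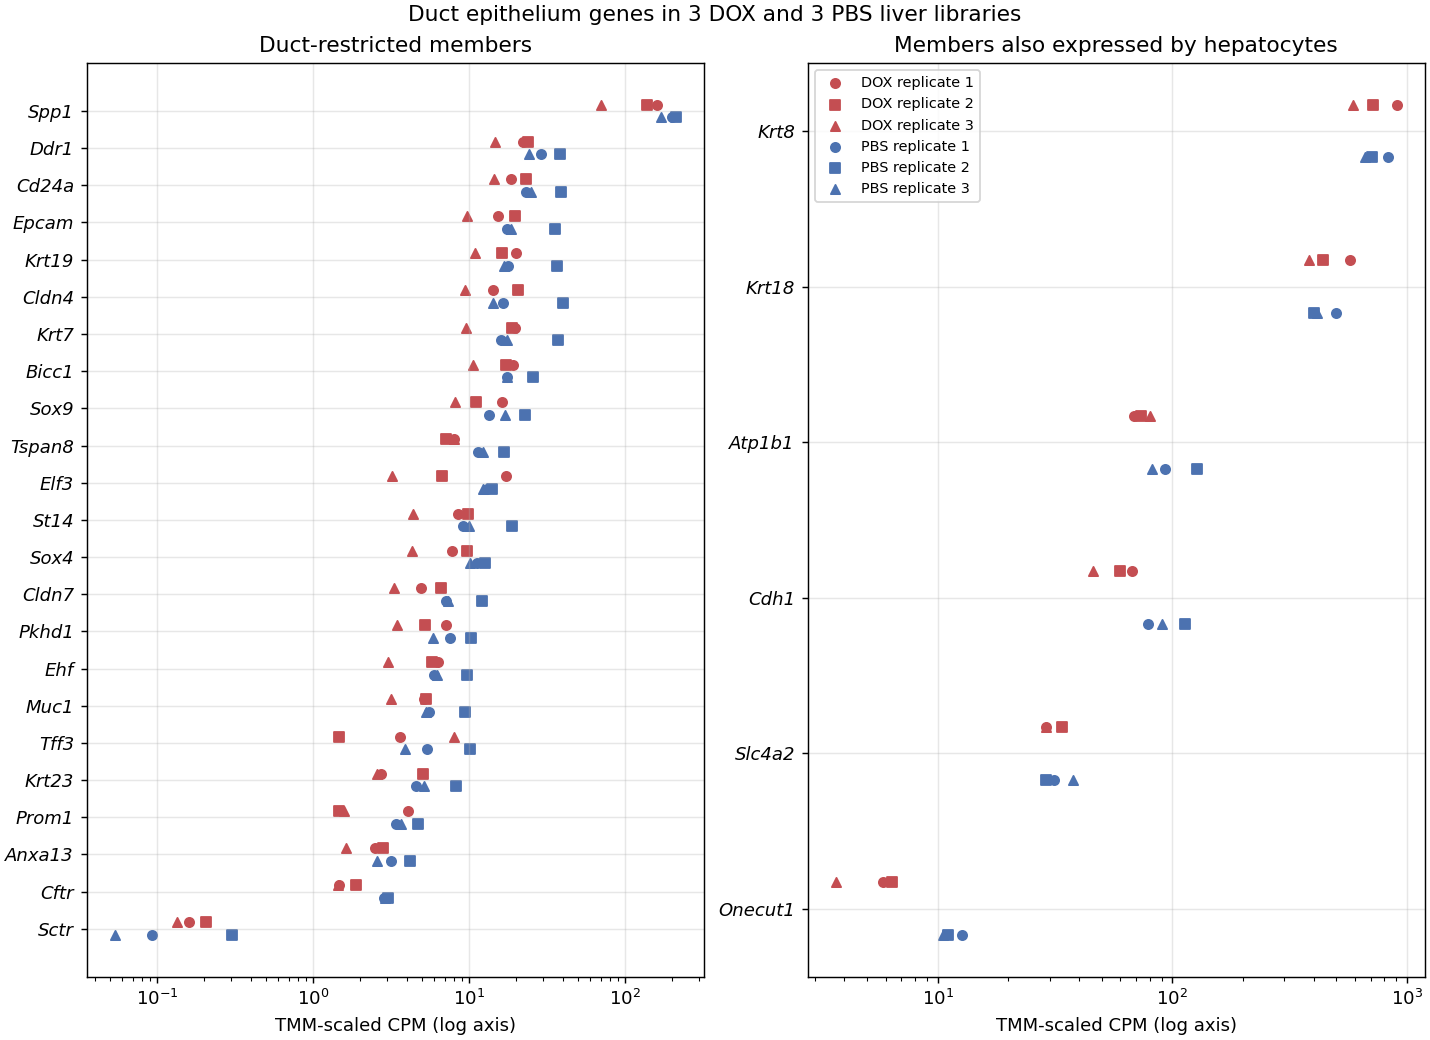
TMM-scaled CPM (log axis) of the 29 members in each library, with the 23 duct-restricted genes on the left and the 6 genes that hepatocytes also express on the right; each point is 1 library, DOX above PBS for each gene. PBS replicate 2 (blue square) is the highest point for most duct-restricted genes and DOX replicate 3 (red triangle) the lowest, while the groups of Krt8 and Krt18 overlap.

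Per length of gene, the members covered a wide range of levels. Krt8 and Krt18 had the highest FPKM (the authors' counts scaled to gene length and library size), with means over the 6 libraries of 408.7 and 323.2 FPKM and overlapping ranges. Spp1, the gene of the secreted phosphoprotein osteopontin, followed with 97.2 FPKM (38.4 to 128.8), below every library of Krt18. Atp1b1 had 33.9 and Cdh1 17.3 FPKM. Among the other duct-restricted genes the means were 14.0 FPKM for Krt19, 12.6 for Krt7 and 9.55 for Epcam, whose ranges overlapped widely, and 0.365 for Cftr, 0.364 for Prom1 and 0.0369 for Sctr at the low end. The duct markers Krt7, Krt19 and Epcam were thus present in each of the 6 libraries, at 4.27 FPKM or more.

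The duct keratins Krt7 (chromosome 15, 101411043 to 101430313 in GRCm38) and Krt19 (chromosome 11, 100140810 to 100148665) build the intermediate filaments of the biliary epithelium. Krt7 had 19.7, 19.0 and 9.58 CPM in DOX replicates 1, 2 and 3, and 16.0, 37.2 and 17.6 CPM in PBS replicates 1, 2 and 3. Krt19 had 19.9, 16.2 and 11.01 CPM in the DOX libraries and 17.7, 36.5 and 16.9 CPM in the PBS libraries. In both genes DOX replicates 1 and 2 lay near or above PBS replicates 1 and 3, and DOX replicate 3 was the lowest. PBS replicate 2 was at 2.21 times the mean of the other PBS libraries for Krt7 and at 2.11 times for Krt19. The log2 fold changes were -0.55 (SE 0.36, adjusted p = 0.642) for Krt7 and -0.59 (SE 0.32, adjusted p = 0.572) for Krt19. Without both PBS replicate 2 and DOX replicate 3, a choice made after seeing the data, they were 0.20 and 0.06. Taking out the highest PBS and the lowest DOX library had to raise both values. Without PBS replicate 2 alone they were -0.06 and -0.14, and without DOX replicate 3 alone -0.28 and -0.38. Krt23, a keratin known to be induced in injured bile ducts and liver, had 2.72, 5.08 and 2.56 CPM in DOX and 4.55, 8.29 and 5.16 CPM in PBS (log2 fold change -0.80, SE 0.33, adjusted p = 0.491), and its groups overlapped through DOX replicate 2.

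Krt8 and Krt18, the keratin pair that hepatocytes and duct cells both make, had log2 fold changes near 0. Whether they differed from the duct keratins in this was not tested. Krt8 had 901.6, 719.2 and 589.9 CPM in DOX and 829.0, 709.6 and 662.1 CPM in PBS, and the DOX libraries spanned the PBS range. Krt18 had 573.8, 437.4 and 380.2 CPM in DOX and 500.1, 402.8 and 414.4 CPM in PBS. Their log2 fold changes were 0.01 (SE 0.18, 95% interval -0.40 to 0.41) and 0.08 (SE 0.17, 95% interval -0.32 to 0.48), and the sign of both turned when libraries were scaled by size only (-0.12 and -0.05). As ratios the intervals reach from 0.758 to 1.33 for Krt8 and from 0.803 to 1.39 for Krt18. In FPKM, Krt18 was 29.1, 27.3 and 34.9 times Krt19 in the DOX libraries and 28.5, 11.2 and 24.8 times Krt19 in the PBS libraries. PBS replicate 2 thus had the lowest ratio of the shared to the duct keratin and DOX replicate 3 the highest. An annotated pseudogene, Krt8-ps, could share reads with Krt8, which leaves its level uncertain in that respect.

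Among the junction genes, Epcam, an adhesion molecule of epithelia that adult hepatocytes lack, had 15.4, 19.9 and 9.77 CPM in DOX and 17.6, 35.6 and 18.6 CPM in PBS (log2 fold change -0.67, SE 0.32, adjusted p = 0.523). Cldn4, a tight junction claudin, had 14.3, 20.7 and 9.48 CPM in DOX and 16.6, 40.1 and 14.3 CPM in PBS (log2 fold change -0.67, SE 0.41). In both, DOX replicate 2 lay above at least 1 PBS library. Cldn7, another claudin, kept the groups apart, with 4.94, 6.62 and 3.32 CPM in DOX and 7.16, 12.1 and 7.38 CPM in PBS (log2 fold change -0.84, SE 0.29, adjusted p = 0.433). Cdh1, the E-cadherin gene (chromosome 8, 106603351 to 106670246), whose product joins epithelial cells and is made by periportal hepatocytes too, had 67.3, 59.9 and 46.1 CPM in DOX and 78.3, 113.4 and 90.0 CPM in PBS. Its groups did not overlap, and its log2 fold change of -0.70 (SE 0.17, 95% interval -1.10 to -0.30) missed the threshold in edgeR (adjusted p = 0.308) and passed in DESeq2 (adjusted p = 0.0317).

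Among the transcription factors, Onecut1 had the largest difference of all 28 tested members. It encodes HNF6, a factor needed for bile duct formation in the embryo and active in adult hepatocytes, and lies on chromosome 9 (74861921 to 74891781). Onecut1 had 5.82, 6.38 and 3.67 CPM in DOX and 12.7, 11.04 and 10.5 CPM in PBS, so that the highest DOX library lay well below the lowest PBS library. In counts it had 218, 216 and 136 in DOX and 549, 365 and 394 in PBS. The log2 fold change was -1.11 (SE 0.21), a ratio of 0.463 (95% interval 0.332 to 0.646). It ranked at position 48 of the 13725 genes by p and did not pass in edgeR (adjusted p = 0.183). It passed with DESeq2 (adjusted p = 0.000375) and in edgeR when genes of low count were kept in (adjusted p = 0.0271). Over all alternatives tried the adjusted p ranged from 0.000375 to 0.515, and the log2 fold change stayed between -1.26 and -0.90. An annotated gene, Gm20649, overlaps exons of Onecut1 on the same strand, and how reads in the overlap were assigned is not given in the sources used here.

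Sox9, the factor that marks biliary cells and the first hepatocytes to take on duct traits, had 16.3, 11.1 and 8.13 CPM in DOX and 13.5, 22.9 and 17.1 CPM in PBS (log2 fold change -0.59, SE 0.27, adjusted p = 0.509). Its groups overlapped, since DOX replicate 1 exceeded PBS replicate 1. Sox4, a related factor that acts with Sox9 in bile duct development, had 7.82, 9.69 and 4.35 CPM in DOX and 11.3, 12.6 and 10.2 CPM in PBS, without overlap (log2 fold change -0.64, SE 0.26, adjusted p = 0.486). Of the epithelial ETS factors, Ehf had a log2 fold change of -0.53 (SE 0.30). Elf3 had a wide spread in DOX, with 17.3, 6.76 and 3.21 CPM in DOX and 13.1, 14.0 and 12.3 CPM in PBS. DOX replicate 1 was the highest of all 6 libraries for Elf3 and DOX replicate 3 the lowest (log2 fold change -0.53, SE 0.49).

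The genes of bile secretion were low. Cftr, the apical chloride channel that drives duct secretion (chromosome 6, 18170687 to 18322768), had 1.47, 1.89 and 1.46 CPM in DOX and 2.86, 3.03 and 2.89 CPM in PBS. These are 1.61 ± 0.247 CPM in DOX and 2.93 ± 0.0879 CPM in PBS (SD, n = 3 each), and both groups were tighter than those of most members. The log2 fold change was -0.87 (SE 0.23, 95% interval -1.39 to -0.34, adjusted p = 0.350), and PBS replicate 2 was only 1.05-fold above the other PBS libraries. Sctr, the secretin receptor, had 6, 7 and 5 counts in the DOX libraries and 4, 10 and 2 in the PBS libraries, too few to be tested across genes (exact two-sided permutation p = 0.9). With 3 against 3 libraries that test cannot go below 0.1. Slc4a2, the chloride and bicarbonate exchanger that completes this pathway and that hepatocytes also use, had 28.8, 33.8 and 29.07 CPM in DOX and 31.4, 29.05 and 37.5 CPM in PBS, with overlapping groups (log2 fold change -0.10, SE 0.12, 95% interval -0.37 to 0.18). Atp1b1, the beta subunit of the sodium pump, had 68.4, 73.1 and 80.2 CPM in DOX and 93.0, 127.8 and 82.1 CPM in PBS (log2 fold change -0.45, SE 0.16, adjusted p = 0.444). Its groups did not overlap, by a narrow margin between DOX replicate 3 and PBS replicate 3.

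The cilium gene Pkhd1, which encodes fibrocystin and is mutated in recessive polycystic kidney and liver disease, had 7.15, 5.23 and 3.48 CPM in DOX and 7.59, 10.3 and 5.86 CPM in PBS (log2 fold change -0.58, SE 0.29). Bicc1, an RNA-binding protein whose loss gives duct cysts, had the smallest difference of the duct-restricted genes (log2 fold change -0.36, SE 0.24). The groups of both overlapped.

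Tspan8, a tetraspanin of epithelial membranes (chromosome 10, 115816832 to 115849893), had the smallest p of the duct-restricted genes. It had 8.03, 7.09 and 8.02 CPM in DOX and 11.5, 16.8 and 12.4 CPM in PBS. The DOX libraries were close together and all lay below the PBS libraries, and DOX replicate 3 was not lower than the other DOX libraries (1.06 times their mean). The log2 fold change was -0.81 (SE 0.17, ratio 0.570, 95% interval 0.438 to 0.742). It missed the threshold in edgeR (adjusted p = 0.216) and passed in DESeq2 (adjusted p = 0.00991), with a range over all alternatives from 0.00991 to 0.418.

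Among the other surface and secreted proteins, Spp1 had 161.5, 138.0 and 70.7 CPM in DOX and 199.7, 212.1 and 171.3 CPM in PBS, without overlap (log2 fold change -0.66, SE 0.27, adjusted p = 0.486). Cd24a, a small glycosylated surface protein, had 18.6, 23.2 and 14.6 CPM in DOX and 23.4, 39.0 and 25.2 CPM in PBS, where DOX replicate 2 and PBS replicate 1 nearly met (log2 fold change -0.64, SE 0.23). Ddr1, a collagen receptor kinase of epithelia, had 22.1, 24.0 and 14.8 CPM in DOX and 29.01, 38.7 and 24.4 CPM in PBS (log2 fold change -0.59, SE 0.21). In Cd24a and Ddr1 the groups did not overlap, but the gap was small beside the spread within each group. St14, the matriptase protease, Muc1, a membrane mucin, Prom1, the CD133 protein of progenitor and duct cells, and Anxa13, an epithelial annexin, had overlapping groups, with log2 fold changes of -0.74, -0.57, -0.72 and -0.53 and adjusted p of 0.523 to 0.575. Tff3, a trefoil peptide secreted with mucus, went against the usual order of the DOX libraries. It had 3.63, 1.48 and 8.02 CPM in DOX and 5.42, 10.2 and 3.88 CPM in PBS. DOX replicate 3, the lowest library for most members, was the highest DOX library for Tff3 (log2 fold change -0.56, SE 0.56).

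**Figure D2:**
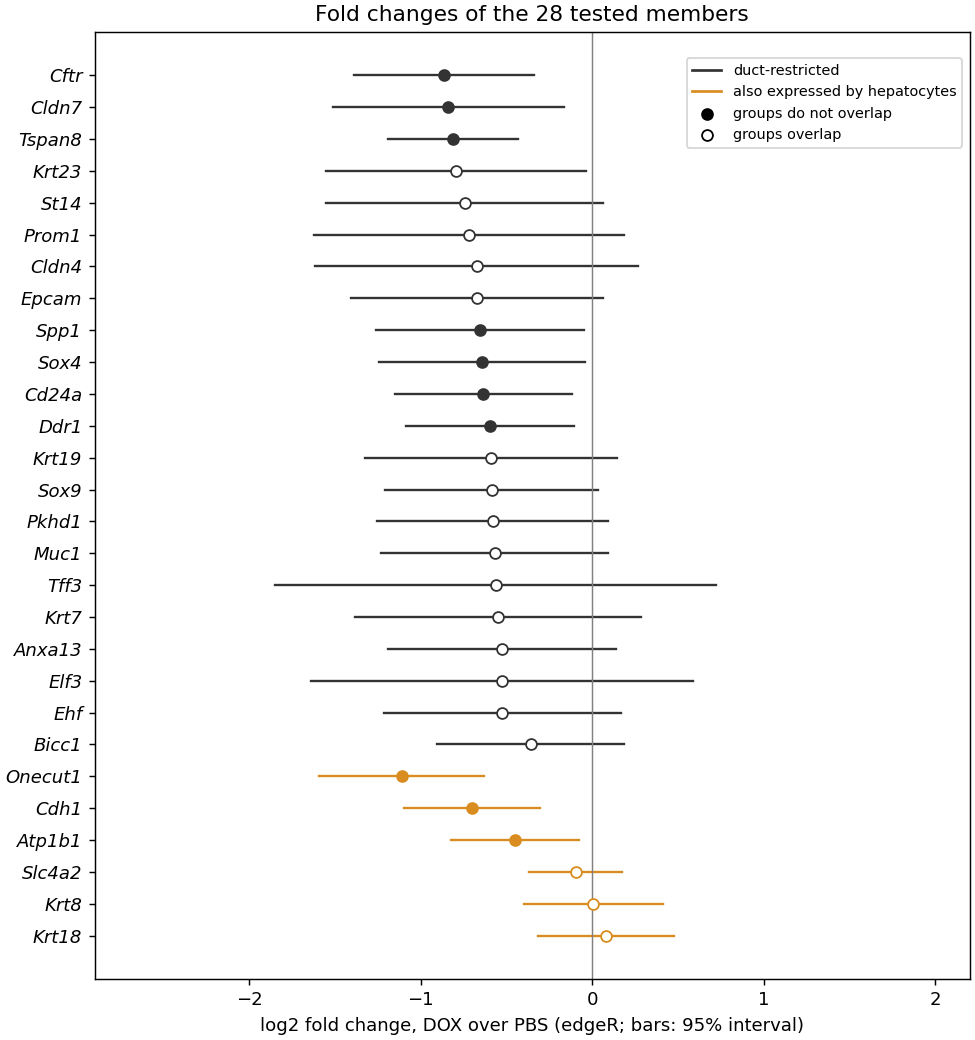
Log2 fold change of DOX over PBS for the 28 tested members, with 95% intervals from the edgeR fit over all genes; filled points mark genes whose groups do not overlap. All 22 duct-restricted genes (black) lie between -0.87 and -0.36, and of the genes that hepatocytes also express (orange) Onecut1, Cdh1 and Atp1b1 lie below 0 with their intervals; the intervals of Slc4a2, Krt8 and Krt18 span 0, and those of 8 of the 22 duct-restricted genes lie below it.

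Promoters are shown for Tspan8 and Cftr, the duct-restricted members of smallest p, and for the duct keratin Krt7 and the shared keratin Krt8. The RefSeq table (GRCm38.p6) held a promoter for 19 of the 29 members, and the 250 bases before the RefSeq start are printed 5′ to 3′ on the gene's strand. This start can differ from that of the gene positions given above, which are from GENCODE. By GENCODE, the windows of Krt7 and Tspan8 lie inside the gene and that of Krt8 overlaps it, while the Cftr window ends just before the gene. Capitals mark exact matches, on either strand, to core motifs of factors known from bile duct biology or epithelia. The motifs reported are ATCAAT (ONECUT, the family of Onecut1), GGAATG (TEAD), TGGGAA (RBPJ, of the Notch pathway), CCGGAA (ETS), AACCNGGTT (GRHL) and ACAATG (SOX).
Tspan8, chr10:115817034-115817283, plus strand: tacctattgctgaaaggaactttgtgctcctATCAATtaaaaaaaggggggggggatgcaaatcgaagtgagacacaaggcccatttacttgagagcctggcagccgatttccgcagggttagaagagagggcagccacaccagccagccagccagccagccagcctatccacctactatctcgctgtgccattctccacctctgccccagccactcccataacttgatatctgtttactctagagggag
Cftr, chr6:18170437-18170686, plus strand: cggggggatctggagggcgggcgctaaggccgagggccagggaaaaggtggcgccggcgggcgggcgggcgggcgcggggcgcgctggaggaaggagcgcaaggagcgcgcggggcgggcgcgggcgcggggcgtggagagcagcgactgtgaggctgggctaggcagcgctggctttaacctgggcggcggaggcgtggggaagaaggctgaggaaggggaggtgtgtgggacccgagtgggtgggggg
Krt7, chr15:101412153-101412402, plus strand: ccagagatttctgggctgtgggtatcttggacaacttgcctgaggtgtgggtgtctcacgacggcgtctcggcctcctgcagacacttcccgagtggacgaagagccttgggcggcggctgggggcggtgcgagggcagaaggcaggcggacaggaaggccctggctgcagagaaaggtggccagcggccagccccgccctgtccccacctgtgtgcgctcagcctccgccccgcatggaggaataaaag
Krt8, chr15:102004343-102004592, minus strand: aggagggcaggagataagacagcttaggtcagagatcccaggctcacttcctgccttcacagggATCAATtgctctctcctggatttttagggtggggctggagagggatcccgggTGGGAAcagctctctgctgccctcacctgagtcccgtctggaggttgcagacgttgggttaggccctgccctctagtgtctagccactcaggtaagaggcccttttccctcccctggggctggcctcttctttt

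An ONECUT match began 219 bases before the RefSeq start of Tspan8, whose DOX libraries all lay below the PBS libraries, and 186 bases before that of Krt8, whose groups overlapped. A match to this motif occurred in 1 of the 14 duct-restricted and 1 of the 5 shared members with a promoter, and in 6.72% of the 32851 promoters of the table. Krt8 also held a match to the RBPJ motif, as did 3 of the 14 duct-restricted members (21.6% of all promoters). The windows of Cftr and Krt7 held none of these motifs. TEAD matches were found in 4 of the 14, in Elf3, Muc1, Cldn7 and Sox4 (12.6% of all promoters), ETS matches in Spp1, Cldn7 and the shared gene Slc4a2 (12%), a SOX match in Krt23 (10.7%) and GRHL matches in 0 of the 19 (0.24%). In the 4 windows printed no base lay in more than 1 match.

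The duct-restricted genes moved together from library to library, also within a group. PBS replicate 2 was the highest of the 6 libraries in 21 of the 22 tested genes, all but Elf3, where it was the highest for 20.7% of all tested genes. DOX replicate 3 was the lowest in 19 of the 22, all but Prom1, Tff3 and Tspan8, against 25.6% of all genes. The mean log2 CPM of the 22 genes was 3.35, 3.25 and 2.69 in DOX replicates 1, 2 and 3, and 3.52, 4.15 and 3.49 in PBS replicates 1, 2 and 3. PBS replicate 2 was thus 1.56-fold above the mean of the other PBS libraries, and DOX replicate 3 was at 0.653 of the mean of the other DOX libraries. Between DOX replicates 1 and 2 and PBS replicates 1 and 3 the ratio was 0.868. From its lowest to its highest library, each group spanned about as much as the median difference between the groups. The SD of the mean log2 CPM was 0.36 in DOX and 0.37 in PBS.

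Levels were also taken relative to the mean of the other duct-restricted genes in the same library, which by its construction balances the differences of these genes around 0. Across the 6 libraries the relative level of Tff3 spanned 2.80 log2 units and that of Elf3 1.68. In 1 of the 22 genes, Bicc1, the groups did not overlap, with a relative level of 0.93 ± 0.094 in DOX and 0.66 ± 0.063 in PBS (SD, n = 3 each). The share of all genes for which this holds was not taken on this scale, and Bicc1 had the smallest fold change of the 22. No result about Bicc1 is drawn from it. Of the shared genes, Cdh1 lay above the duct mean by a similar amount in both groups (2.75 ± 0.097 log2 units in DOX and 2.83 ± 0.171 in PBS). Onecut1 was lower against the duct mean in DOX (-0.60 ± 0.112 in DOX and -0.15 ± 0.422 in PBS), with PBS replicate 2 within the DOX range. Krt8 and Krt18 were higher against the duct mean in all 3 DOX libraries than in all 3 PBS libraries, with a difference of 0.61 and 0.69. The duct mean itself was lower in every DOX library than in every PBS library. A gene with little change of its own therefore tends to come out higher in DOX on this scale, and the difference mostly restates that of the duct genes. These values describe ratios within a library, and cannot tell which of the genes differed.

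Leaving out DOX replicate 3 and PBS replicate 2 together, a choice made after seeing the data, moved the median of the duct-restricted genes to -0.14. Without DOX replicate 3 alone it was -0.40 and without PBS replicate 2 alone -0.36. With both left out, 18 of the 22 genes still had a negative value, and Krt7, Krt19, Cldn4 and Bicc1 had values from 0.06 to 0.20. The 7 genes whose groups did not overlap had values from -0.78 to -0.21 there, and the other 15 a median of -0.07. Groups that do not overlap differ in the same direction for any choice of libraries. The negative values of these 7 were thus set by how they were selected. Values between -0.16 and 0 were found for Epcam (-0.04), Ehf (-0.01), Muc1 (-0.05), St14 (-0.07), Elf3 (-0.07), Pkhd1 (-0.12), Anxa13 (-0.12) and Sox9 (-0.16). Krt23 was at -0.32, Cldn7 at -0.33, Prom1 at -0.34, Spp1 at -0.31, Sox4 at -0.30, Cd24a at -0.22 and Ddr1 at -0.21, and of the shared genes Atp1b1 was at -0.31, Slc4a2 at -0.14, Krt8 at 0.12 and Krt18 at 0.15. Cftr (-0.78), Tspan8 (-0.66) and, of the shared genes, Onecut1 (-0.93) and Cdh1 (-0.40) were the members outside Tff3 (-0.86) with the lowest values, and none of the 28 passed with 2 libraries a group (lowest adjusted p = 0.254).

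**Figure D3:**
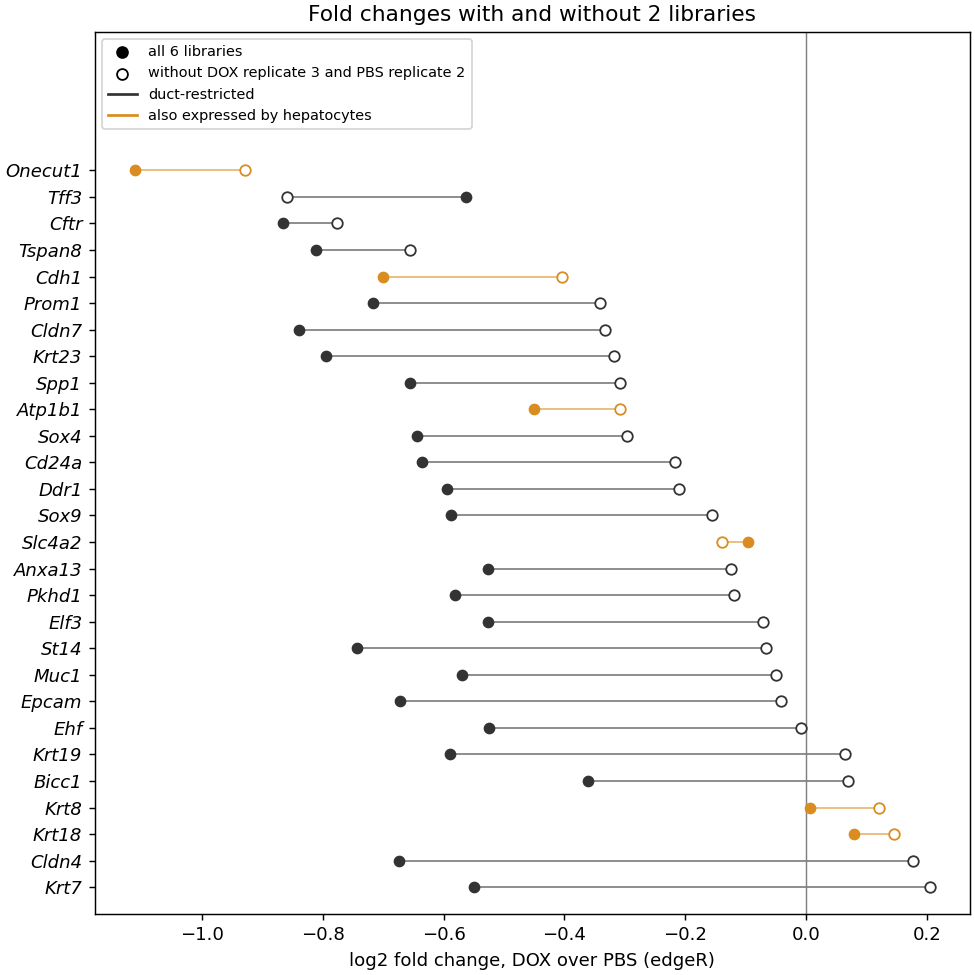
Log2 fold change of DOX over PBS of the 28 tested members from all 6 libraries (filled) and without DOX replicate 3 and PBS replicate 2 (open), from edgeR. The median of the duct-restricted genes (black) goes to -0.14 without the 2 libraries, while Onecut1, Cftr and Tspan8 stay at -0.66 or lower.

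Other genes of duct epithelium, 21 that are not among the 29, were examined beside them. Of the 20 tested, 19 had a negative log2 fold change. The median was -0.39, and 0 passed (adjusted p = 0.469 to 0.974). In 2 of the 20 every DOX library lay below every PBS library, a share of 10% beside 9.02% of all tested genes. Among those of smallest p were Glis3, a factor of cilium and duct development (1.90, 1.74 and 2.02 CPM in DOX, 2.31, 4.39 and 2.84 CPM in PBS, log2 fold change -0.75, SE 0.29) and Dcdc2a, a protein of the duct cilium (5.90, 8.06 and 5.21 CPM in DOX, 8.03, 15.9 and 8.32 CPM in PBS, log2 fold change -0.75, SE 0.29). PBS replicate 2 was the highest library in 15 of the 20 (20.7% of all tested genes). Cldn3, another claudin, had a log2 fold change near 0 (-0.04, SE 0.11) and was named after its values were seen.

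Markers of other cells of the liver differed between the same libraries. The 14 endothelial genes summed to 97.4, 54.7 and 83.7 FPKM in DOX replicates 1, 2 and 3 and to 69.8, 23.7 and 70.3 FPKM in PBS replicates 1, 2 and 3, so that PBS replicate 2, the highest library for the duct genes, was the lowest for these. Of the 14, 13 had a positive log2 fold change (median 0.74), among them Flt1 (0.95, SE 0.30), Ptprb (1.09, SE 0.45) and Tek (1.01, SE 0.51), and 0 passed. The 13 mesenchymal genes summed to 62.2 to 140.6 FPKM in DOX and 69.2 to 142.6 FPKM in PBS, with the lowest sums in DOX replicate 3 and PBS replicate 2 (median log2 fold change 0.29). The 14 hepatocyte genes, led by Alb, summed to 58510 to 81546 FPKM in DOX and 53423 to 57673 FPKM in PBS (median 0.12). Alb, the albumin gene, was higher in every DOX library than in every PBS library (log2 fold change 0.84, adjusted p = 0.457 in edgeR) and passed in DESeq2 (adjusted p = 0.0181). The 11 macrophage genes summed to 542.6 to 751.8 FPKM in DOX and 683.3 to 752.2 FPKM in PBS (median 0.01), and the 10 neutrophil genes to 16.0 to 26.01 FPKM in DOX and 19.98 to 47.1 FPKM in PBS (median -0.59 over 7 tested).

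The 6 mesothelial genes summed to 1.16 to 2.73 FPKM in DOX and 1.95 to 4.79 FPKM in PBS, with the highest sum in PBS replicate 2. Msln, mesothelin, had 7.23 CPM there and 1.35 to 3.60 CPM in the other libraries. The 8 lymphocyte genes summed to 0.793 to 2.89 FPKM in DOX and 1.10 to 1.87 FPKM in PBS (median log2 fold change 0.35 over 4 tested), and Ms4a1, a B cell marker, had 0 counts in all 3 DOX libraries and at most 1 in a PBS library. Of 7 markers of pancreas and intestine 3 were matched. Their sums were 17.1 to 20.6 FPKM in DOX and 11.6 to 16.4 FPKM in PBS. The 2 that were tested had log2 fold changes of 0.29 and 0.80. In 1 of them every DOX library lay above every PBS library, which was so for 7.84% of all tested genes. Ctrb1, a pancreatic protease gene, had 0 counts in 5 libraries and 1 in PBS replicate 3. Krt20, a keratin of intestinal and other epithelia on the list of other duct genes, had 39 counts in PBS replicate 2 and 2 to 8 in the other 5 libraries. None of the genes on these lists passed in edgeR (adjusted p of at least 0.404). The part of other cells in the duct gene differences was not tested.

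**Figure D4:**
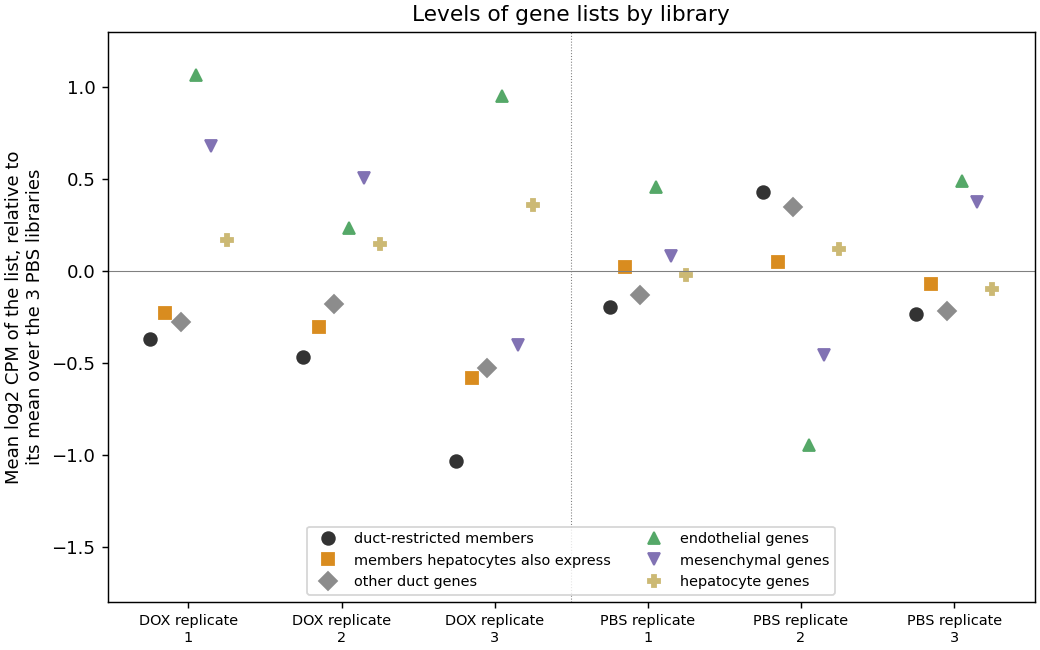
Mean log2 CPM of the tested genes of 6 lists in each library, relative to the list's mean over the 3 PBS libraries; each point is 1 list in 1 library. The duct-restricted genes (black circles) are lowest in DOX replicate 3 and highest in PBS replicate 2, where the endothelial genes (green triangles) are lowest.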

How the data were processed

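Total RNA of mouse liver was used, and libraries were made with a SMARTER mRNA-Seq kit, per the labels' protocols. The submitters' processing notes name GRCm38 and mm10, while which aligner and counting tool were used, and whether strand was, is not given in the sources used here. Deposited by the authors were whole-number read counts per gene and FPKM values of 6 libraries. The deposited FPKM equal the counts divided by 1 length per gene and the column total in 18913 of 18913 genes compared (relative tolerance 1e-05). Libraries of 1 group differed by more than counting error (44.8 to 142 as chi-square over degrees of freedom) and each counted as 1 sample. Since separate animals are not stated, p-values reflect only how far these samples spread, possibly for technical reasons. A floor of 3 counts corresponds to 0.073 to 0.0914 CPM.

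Counts were tested with edgeR 4.0.16 (R 4.3.3; filterByExpr, TMM, quasi-likelihood, no block) for DOX against PBS, with Benjamini-Hochberg adjustment over all tested genes and a threshold of 0.05. CPM are TMM-scaled, and 0.5 was added before logs. Standard errors were taken from the F statistic. The procedure was tested on simulated counts. Alternatives were DESeq2 1.42.0, limma-voom (limma 3.58.1), RLE or library-size scaling, no filter, limma on log2 of FPKM plus 1 or 0.1 (mean FPKM above 0.1, or all genes), the replicate block, leaving out each library, and leaving out 2 libraries. The members and the 13 other lists were chosen with earlier results of these data known. The genes named are all 29 members and, of the other lists, up to 3 of smallest p, some of which are not reported here, as is 1 motif. Bche was named as the overexpressed gene, and Yap1, Cldn3, Krt20, Ms4a1 and Ctrb1 were chosen after their values were seen. Exons of 14 of the 29 members overlap another annotated gene (GENCODE, GRCm38), on the same strand for 2, Spp1 and Onecut1, which leaves their counts uncertain in that respect.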

Additional observations from a re-analysis of the deposited data

How the results depend on the processing

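All 22 tested duct-restricted genes kept a negative log2 fold change under each alternative that kept at least 5 libraries, and their median then ranged from -0.76 to -0.36. Without both DOX replicate 3 and PBS replicate 2, an alternative chosen after seeing the data, it moved to -0.14, with Krt7 at 0.20, Cldn4 at 0.18, Bicc1 at 0.069 and Krt19 at 0.064 (the lowest values without 1 library were -0.77, -0.98, -0.52 and -0.79 in that order of genes). The median of the 6 shared genes ranged from -0.40 to -0.21. The number of members called was 3 with DESeq2 and 1, Onecut1, without the filter on low counts, and 0 elsewhere, while the number of all genes called was 176 with DESeq2, 61 without the filter, 2 with limma-voom and 21 with the replicate block, against 4. The cause was not tested. Leaving out 1 library gave 3 to 4 genes called and 0 members. Scaling by library size moved the median of all genes to -0.149.

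Krt8 and Krt18, neither called, changed sign in some settings. Krt8 was at -0.12 with library size only, -0.0064 with limma-voom, -0.14 on each FPKM fit and -0.0086 with the replicate block, and -0.16 to 0.15 when 1 library was left out. Krt18 was at -0.052 with library size only, -0.069 on each FPKM fit, and -0.096 to 0.21 when 1 library was left out. Slc4a2 ranged from -0.17 to 0.015 when 1 library was left out.

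The labels give the replicate numbers no meaning, so the numbers were not taken as pairs. Deviations of libraries with the same number correlated at 0.225, 0.161 and 0.0193, and those of unlike number at -0.214 to 0.0661. A link between libraries of the same number is thus not excluded. With the replicate block 0 members passed, and the duct-restricted median was -0.64.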

Other observations

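Genes of the pathways known to steer the ductular reaction had medians nearer to 0 than the duct genes, and 0 passed. Of 13 genes of the Notch pathway, which directs biliary fate, 9 had a negative log2 fold change (median -0.05). The ligand genes Jag1 and Jag2 had the smallest p among them. Jag1, whose loss of function leaves too few bile ducts, had 5.61, 4.08 and 3.05 CPM in DOX and 5.63, 7.75 and 6.66 CPM in PBS, with DOX replicate 1 and PBS replicate 1 almost level (log2 fold change -0.65, SE 0.24, adjusted p = 0.462). Jag2 was near the limit of detection, at 0.135 to 0.347 CPM in DOX and 0.375 to 0.908 CPM in PBS (log2 fold change -1.41, SE 0.55, adjusted p = 0.474). Hes1, a target of Notch, had overlapping groups (log2 fold change -0.34, SE 0.24).

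Of 13 genes of the Hippo and YAP pathway, which controls liver growth and duct traits, 11 had a negative value (median -0.17). Yap1 itself had a log2 fold change of -0.01 (SE 0.10). Ajuba, a LIM protein of cell junctions, had -0.33 (SE 0.14), and Ccn1, a matrix protein and YAP target, had 28.5, 25.5 and 13.3 CPM in DOX and 33.2, 34.4 and 30.8 CPM in PBS, without overlap (log2 fold change -0.55, SE 0.24, adjusted p = 0.5005). Among 11 tested genes of signals that act on duct cells, 7 had a negative value (median -0.20). Tgfb2, a growth factor of the TGF beta family, had 5.45, 6.03 and 2.51 CPM in DOX and 7.82, 13.1 and 6.55 CPM in PBS (log2 fold change -0.97, SE 0.36, adjusted p = 0.457), with the same highest and lowest libraries as most duct genes. Met, the receptor of hepatocyte growth factor, had 57.8, 53.8 and 68.6 CPM in DOX and 50.1, 51.7 and 50.9 CPM in PBS, without overlap (log2 fold change 0.24, SE 0.11, adjusted p = 0.501). The 9 tested cell cycle genes had a median of -0.18, and Mki67, the proliferation marker, had 1.47, 3.78 and 1.40 CPM in DOX and 4.34, 2.24 and 3.83 CPM in PBS. Its highest DOX library was DOX replicate 2 and its lowest PBS library PBS replicate 2, so its order among libraries was not that of the duct genes.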
